A study of Mus musculus with 54 samples.

Results

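The transcripts of 5 CC chemokine genes, Ccl2, Ccl7, Ccl3, Ccl4 and Ccl5, were followed through 54 RNA-seq libraries taken before and after 10 Gy of gamma radiation. The members were taken by symbol from a matrix of 13611 genes, and all 5 were present. Of the libraries, 40 came from C57B6 mice, as 10 each from thymus, spleen, small intestine and large intestine, and 14 came from NIH3T3, an established mouse embryonic fibroblast line kept in culture. Every tissue had 1 untreated library (0 h) and 1 library at each hour from 1 to 8 h and at 24 h after 10 Gy. NIH3T3 also had 1 library at each hour from 9 to 12 h. The labels state neither sex nor age of the animals, nor whether each hour was a separate animal or culture, and p-values measure only how far these libraries spread, which may be technical. The 0 h library was the only unirradiated one of its system, so radiation, elapsed time and handling cannot be told apart.

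Chemokines are small secreted proteins that set up gradients along which leukocytes migrate, and they are read by receptors on the target cell. CC chemokines are named for a pair of adjacent cysteines near the start of the mature protein. Ccl2 and Ccl7 are ligands of Ccr2 and draw monocytes from bone marrow into tissue, and stromal, endothelial and myeloid cells make them. Ccl3 and Ccl4 are made at once by activated macrophages and lymphocytes, and Ccl3 is a ligand of Ccr1. Ccl5, a ligand of Ccr1 and Ccr3, is held at a steady level by memory and cytotoxic T cells and natural killer cells.

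The 5 genes lie on mouse chromosome 11 (GRCm38, the assembly that mm10 names) and each has 3 exons in GENCODE M21. The stretch of 48 coding bases that begins at the paired cysteine codons is shown because it carries the feature that names the family; the codon pair is in capitals, 5′ to 3′ on the coding strand. All 5 stretches lie in exon 2.
Ccl2: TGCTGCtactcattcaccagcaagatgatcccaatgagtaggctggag
Ccl7: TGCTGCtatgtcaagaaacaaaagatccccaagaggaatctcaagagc
Ccl3: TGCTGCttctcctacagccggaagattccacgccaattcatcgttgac
Ccl4: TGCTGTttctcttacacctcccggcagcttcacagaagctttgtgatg
Ccl5: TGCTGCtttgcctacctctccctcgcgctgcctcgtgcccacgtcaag

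These stretches sit at chr11:82036506-82036553 (plus strand) for Ccl2, chr11:82046538-82046585 (plus) for Ccl7, chr11:83648610-83648657 (minus) for Ccl3, chr11:83663482-83663529 (plus) for Ccl4 and chr11:83529200-83529247 (minus) for Ccl5. Ccl2 and Ccl7 are neighbours, 8258 bases apart, and Ccl3 and Ccl4 are 13228 bases apart, while 1478252 bases separate Ccl7 from Ccl5. Over the whole coding sequence, aligned bases were 72.1% identical between Ccl2 and Ccl7 and 71.1% between Ccl3 and Ccl4, within a range of 60.5% to 72.1% over the 10 pairs. None of the 50-base words in the 5 transcripts (483 in Ccl5 to 764 in Ccl2) occurred in a transcript of another gene, so no stretch of that length is shared exactly with a second annotated gene. The libraries were not stranded, and the RefSeq annotation of GRCm38.p6 holds a predicted Ccl4 transcript that overlaps Ccl3. No source used here says how the authors' annotation split reads there, and the Ccl3 and Ccl4 values are uncertain to that extent.

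Levels are in FPKM, a measure scaled to transcript length and to the mapped fragments of the library. It gives each level relative to the rest of the same library. No further scaling is described, so levels in libraries of unlike composition, such as different systems, compare only roughly. Tissue labels were checked against markers: 6 enterocyte genes summed to 46199 to 63050 FPKM in small intestine, and in NIH3T3 the macrophage markers Adgre1 and C1qa were at 0 in every library. No source used here gives the number of fragments per library. From the steps between low values, the deepest library held roughly 2.04 to 2.64 times the fragments of the shallowest in 4 systems and 3.88 times in thymus. There were 4 libraries that stood apart. The 24 h thymus library held 5848 FPKM of the enterocyte genes (at most 29.7 in the other thymus libraries) and the 2 h large intestine library 21877 (at most 2594 in the others). Pancreatic acinar genes reached 48350 FPKM in the 6 h spleen library, and Ly6g, a neutrophil surface gene, 399 FPKM in the 1 h large intestine library against 43.6 or less in the others of that tissue; the other 6 neutrophil genes found were at 0 to 2.55 FPKM in that library. Calls of members that rest on these libraries are given with and without them, save for thymus at 24 h. That hour had no other thymus library. The other gene lists, the marker sums and the correlations within a tissue are given with all libraries only.

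**Figure D1:**
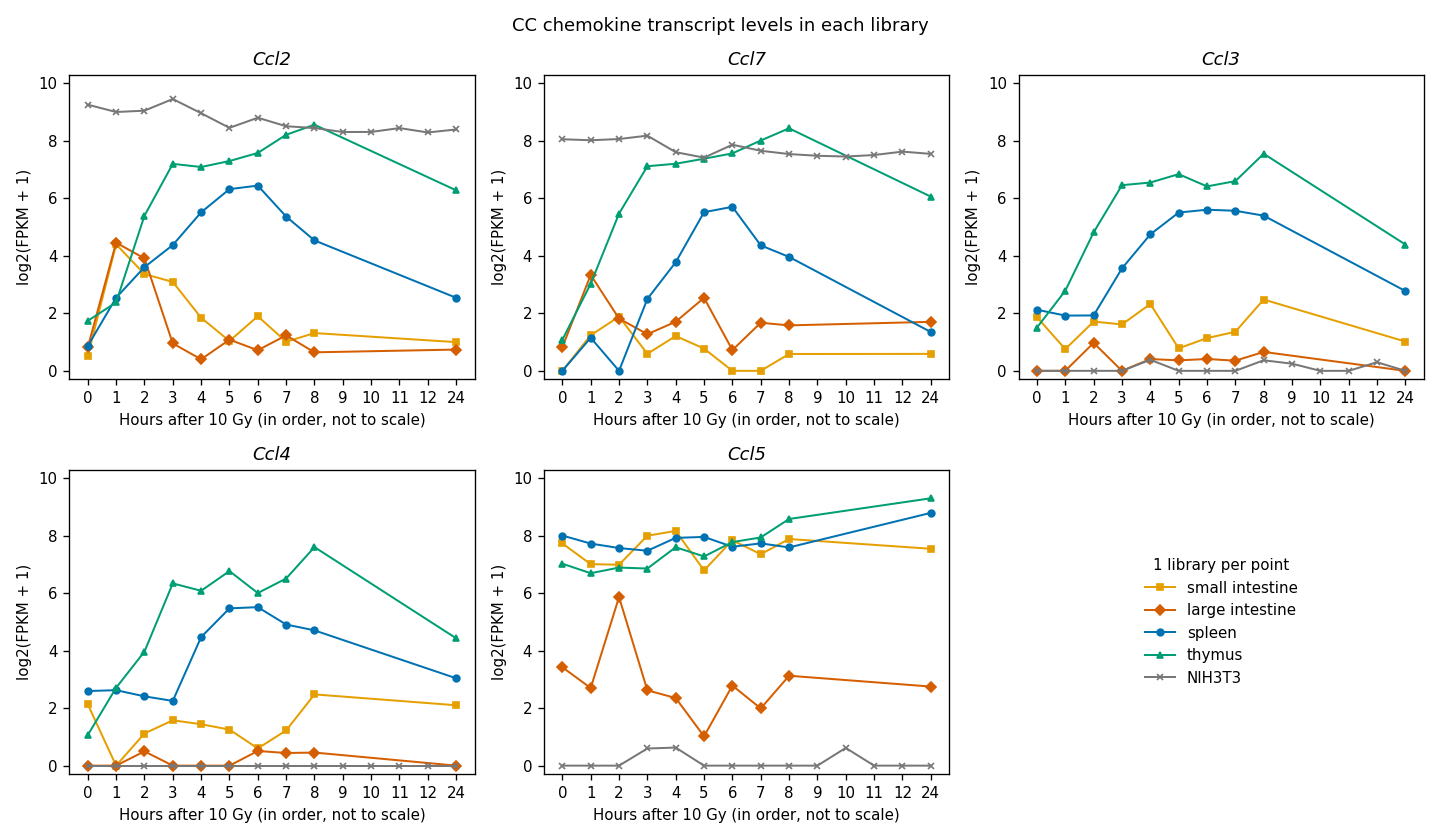
Levels of the 5 genes as log2(FPKM + 1) against hours after 10 Gy, 1 panel per gene, 1 point per library and 1 line per system; hours are in order and not to scale. Ccl2, Ccl7, Ccl3 and Ccl4 climb in thymus to their highest values at 8 h and in spleen to their highest at 6 h, whereas Ccl5 starts at 129 to 256 FPKM in thymus, small intestine and spleen.

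Ccl2 and Ccl7, the monocyte-recruiting pair, rose in thymus and were still climbing at 8 h. Ccl2 in thymus was 2.34 FPKM at 0 h, then 4.20, 41.1, 146, 135, 157, 190.4, 296 and 377 FPKM from 1 to 8 h, and 76.7 FPKM at 24 h. Ccl7 was 1.11 FPKM at 0 h, then 7.16, 43.3, 138, 147, 166, 188, 258 and 346 FPKM from 1 to 8 h, and 65.8 FPKM at 24 h. All 8 libraries from 1 to 8 h lay above 0 h for both genes, with the lowest at 1 h and the highest at 8 h. On the log2(FPKM + 1) scale the mean change from 0 h was 4.98 ± 0.80 (SE, 8 libraries against 1, limma adjusted p = 0.000250) for Ccl2 and 5.70 ± 0.81 (adjusted p = 7.67e-05) for Ccl7. The peak FPKM at 8 h was 161 times the 0 h value for Ccl2 and 310.3 times for Ccl7. At 24 h both had come down from 8 h, by a factor of 4.91 for Ccl2 and 5.26 for Ccl7, but stood 4.54 ± 1.06 (adjusted p = 0.00136) and 4.98 ± 1.08 (adjusted p = 0.000668) above 0 h.

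The same pair rose in spleen, with its highest value at 6 h. Ccl2 in spleen was 0.820 FPKM at 0 h, then 4.83, 11.2, 19.8, 44.7, 79.0, 86.1, 40.3 and 22.2 FPKM from 1 to 8 h, and 4.82 FPKM at 24 h. Ccl7 was listed at 0 at 0 h, then 1.22, 0, 4.67, 12.7, 44.9, 51.2, 19.6 and 14.6 FPKM from 1 to 8 h, and 1.55 FPKM at 24 h. Every irradiated library was above 0 h for Ccl2; for Ccl7 the 2 h library was also listed at 0. The change at 1 to 8 h was 3.98 ± 0.79 for Ccl2 (limma adjusted p = 0.00238) and 3.37 ± 0.80 for Ccl7 (adjusted p = 0.00914), and no fold is given for Ccl7 against a listed 0. Both calls held without the 6 h library; with spleen fitted alone, that of Ccl7 was lost (adjusted p = 0.0828). At 24 h neither passed the test against 0 h (1.68 ± 1.06, adjusted p = 0.270 for Ccl2; 1.35 ± 1.07, adjusted p = 0.390 for Ccl7).

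In the intestines the highest Ccl2 values came at 1 h. In small intestine Ccl2 was 0.429 FPKM at 0 h, then 20.1, 9.32, 7.54, 2.60, 1.05, 2.73, 1.02 and 1.49 FPKM from 1 to 8 h, and 0.999 FPKM at 24 h. In large intestine Ccl2 was 0.759 FPKM at 0 h, 21.0 at 1 h and 14.1 at 2 h, and between 0.320 and 1.35 FPKM in the 6 libraries from 3 to 8 h. All 8 irradiated libraries of small intestine were above 0 h, against 5 of 8 in large intestine. Neither mean change passed the test (1.73 ± 0.80, limma adjusted p = 0.711 in small intestine; 0.86 ± 0.80, adjusted p = 0.697 in large intestine), nor did 6 to 8 h against 1 to 5 h (-1.34 ± 0.55, adjusted p = 0.319; -1.30 ± 0.55, adjusted p = 0.282). Both early large intestine values come from libraries that stood apart: at 2 h the small intestine transcripts present would carry 3.32 of the 14.1 FPKM, at a marker median of 35.7% of the small intestine level. At 1 h Ly6g stood at 399 FPKM, while the other neutrophil markers were at or near 0. Ccl7 stayed at 2.69 FPKM or below in small intestine, where it was listed at 0 in 3 of 10 libraries. In large intestine Ccl7 ranged from 0.651 to 9.11 FPKM with its highest value also at 1 h (1.01 ± 0.81, adjusted p = 0.633).

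NIH3T3 held both genes at high levels before irradiation and carried less of Ccl2 later. Ccl2 was 612 FPKM at 0 h, then 513, 529.8, 702, 498 and 349.8 FPKM from 1 to 5 h, 447, 364 and 348 FPKM from 6 to 8 h, and 316, 317, 348 and 313 FPKM from 9 to 12 h, with 336 FPKM at 24 h. Its mean from 9 to 12 h, 323 ± 16.3 FPKM (SD, n = 4), lay below that from 1 to 5 h, 519 ± 125 FPKM (n = 5), with no overlap. The change was -0.65 ± 0.15 (limma adjusted p = 0.0124), and the exact two-sided permutation p was 0.0159, where 126 splits allow no less than 0.00794. Ccl7 was 266 FPKM at 0 h, between 170.1 and 289 FPKM from 1 to 5 h and between 175 and 197 FPKM from 9 to 12 h. Those Ccl7 groups overlapped and did not pass (-0.34 ± 0.12, adjusted p = 0.0764), although without the 3 h or the 5 h library they did (adjusted p = 0.0466 and 0.0159). Against 0 h, Ccl2 changed by -0.42 ± 0.23 at 1 to 8 h (adjusted p = 0.274) and -0.86 ± 0.31 at 24 h (adjusted p = 0.0852). Per-hour values of Ccl2 and Ccl7 in NIH3T3 correlated at r = 0.904 over 14 libraries, and the ratio of Ccl2 to Ccl7 stayed between 1.59 and 2.57.

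Ccl3 and Ccl4, the inflammatory pair made by activated myeloid cells and lymphocytes, rose together in thymus. Ccl3 in thymus was 1.84 FPKM at 0 h, then 5.91, 27.2, 87.1, 92.8, 114, 84.5, 96.0 and 187 FPKM from 1 to 8 h, and 20.04 FPKM at 24 h. Ccl4 was 1.09 FPKM at 0 h, then 5.54, 14.6, 80.0, 66.8, 108, 63.2, 90.2 and 193 FPKM from 1 to 8 h, and 20.6 FPKM at 24 h. Every irradiated library was above 0 h for both, and both dipped at 6 h between high values at 5 h and 8 h. The change at 1 to 8 h was 4.50 ± 0.63 for Ccl3 (limma adjusted p = 6.79e-05) and 4.69 ± 0.73 for Ccl4 (adjusted p = 0.000181). At 24 h they stood 2.89 ± 0.84 (adjusted p = 0.00749) and 3.37 ± 0.97 (adjusted p = 0.00680) above 0 h. With Ccl2 and Ccl7, these made 4 of 5 members higher in thymus at 1 to 8 h, where 8.29% of the genes tested were called higher and 12.2% were called in either direction. None of these 4 calls was lost in any alternative run.

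In spleen Ccl3 and Ccl4 were near their 0 h values for the first hours, and Ccl3 passed the test over 1 to 8 h. Ccl3 in spleen was 3.37 FPKM at 0 h, then 2.79, 2.81, 10.8, 25.9, 44.5, 47.7, 46.5 and 41.2 FPKM from 1 to 8 h, and 5.86 FPKM at 24 h. Ccl4 was 5.04 FPKM at 0 h, then 5.17, 4.32, 3.76, 21.2, 43.4, 44.7, 29.1 and 25.1 FPKM from 1 to 8 h, and 7.22 FPKM at 24 h. The 1 h and 2 h libraries were below 0 h for Ccl3, and those at 2 h and 3 h for Ccl4, so neither gene's irradiated libraries cleared the 0 h value as a group. Ccl3 rose by 2.15 ± 0.63 at 1 to 8 h (limma adjusted p = 0.0331), while Ccl4 changed by 1.45 ± 0.72 (adjusted p = 0.229). The call of Ccl3 was lost without the 6 h library (adjusted p = 0.0549 without the 4 libraries that stood apart; 0.0681 to 0.0697 without 6 h or 7 h alone, and 0.0612 without 8 h). With Ccl2 and Ccl7 it made 3 of 5 members higher in spleen at 1 to 8 h, where 5.03% of genes tested were called higher and 8.68% in either direction; with spleen fitted alone only Ccl2 passed.

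Both genes were near the lower limit elsewhere. In small intestine Ccl3 ranged from 0.690 to 4.58 FPKM and Ccl4 from 0 to 4.58 FPKM, with 0 h values of 2.65 and 3.39 FPKM inside those ranges (-0.34 ± 0.63 and -0.92 ± 0.73 at 1 to 8 h, limma adjusted p = 1.00 and 0.947). In large intestine Ccl3 was listed at 0 in 4 of 10 libraries and reached 0.963 FPKM, and Ccl4 was listed at 0 in 6 and reached 0.424 FPKM, so neither was tested. NIH3T3 listed Ccl3 at 0 in 10 of 14 libraries, with at most 0.306 FPKM, and Ccl4 at 0 in all 14.

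Ccl5, the chemokine of cytotoxic lymphocytes, was at 129 FPKM or above in 3 tissues before irradiation and passed no test over 1 to 8 h. In spleen Ccl5 was 256 FPKM at 0 h, then 211, 189, 177, 242, 248, 195, 212 and 192 FPKM from 1 to 8 h, and 443 FPKM at 24 h. All 8 libraries from 1 to 8 h lay below 0 h and the 24 h library above it, yet neither change passed (-0.31 ± 0.67, limma adjusted p = 0.837; 0.79 ± 0.89, adjusted p = 0.560). In small intestine it was 212 FPKM at 0 h, with a lowest value of 109.9, a median of 196 and a highest of 286 FPKM over 1 to 8 h (-0.23 ± 0.67, adjusted p = 1.00). Those 8 libraries split evenly, 4 above and 4 below 0 h.

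Thymus was where Ccl5 passed a test, at 24 h. Ccl5 in thymus was 129 FPKM at 0 h, then 103, 118, 115, 193, 154, 218, 244 and 382 FPKM from 1 to 8 h, and 630.1 FPKM at 24 h. The first 3 irradiated libraries were below 0 h and the other 5 above it, so the mean change at 1 to 8 h was 0.43 ± 0.67 (limma adjusted p = 0.748). At 24 h it was 2.27 ± 0.89 above 0 h (adjusted p = 0.0415), with no replicate at either time. With quantile normalization that change was 1.58 (adjusted p = 0.119), and with a pseudocount of 0.1 or other time windows the adjusted p was 0.0747 or 0.0591. Small intestine transcripts in that library, at a marker median of 10.9% of the small intestine level, would carry 20.3 of its 630.1 FPKM of Ccl5 and at most 0.360 FPKM of any other member. All 5 members were higher in thymus at 24 h, where 26.4% of genes tested were called higher and 45% in either direction; the median change over all genes tested was 0.15. None of the 5 passed in spleen at 24 h, where 20.8% of genes tested were called.

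Large intestine and NIH3T3 held little Ccl5. In large intestine it was 9.73 FPKM at 0 h, 57.2 FPKM at 2 h, and between 1.03 and 7.74 FPKM in the other 7 libraries from 1 to 8 h (-0.62 ± 0.67, limma adjusted p = 0.752). At 2 h the small intestine transcripts would carry 45.0 of the 57.2 FPKM. NIH3T3 listed Ccl5 at 0 in 11 of 14 libraries and at no more than 0.546 FPKM in the others.

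Across the intestines no member passed in any comparison of hours. In small intestine 4 members were tested (all but Ccl7), where 0.316% of genes tested were called at 1 to 8 h, 0.518% for 6 to 8 h against 1 to 5 h and 0.184% at 24 h. In large intestine 3 were tested (Ccl2, Ccl7 and Ccl5), where those shares were 1.48%, 0.498% and 0.253%. In NIH3T3 2 were tested (Ccl2 and Ccl7). Neither passed at 1 to 8 h, for 6 to 8 h against 1 to 5 h or at 24 h, where 4.47%, 2.3% and 11% of genes were called, and Ccl2 was the 1 called for 9 to 12 h against 1 to 5 h, where 13.6% were called and 6.52% called lower.

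**Figure D2:**
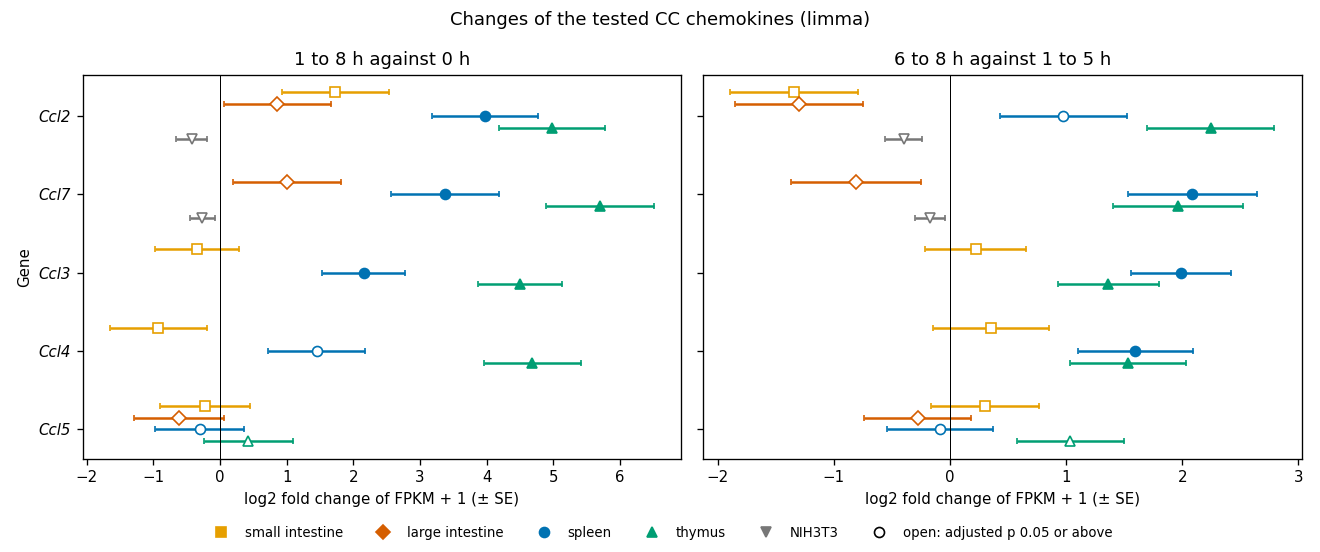
Log2 fold change of FPKM + 1 with its standard error from limma (x axis) for each tested gene (y axis) and system, at 1 to 8 h against 0 h (left) and at 6 to 8 h against 1 to 5 h (right); filled symbols have an adjusted p below 0.05. In the left panel 4 thymus and 3 spleen symbols are filled, and no intestinal or NIH3T3 symbol is.

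Within the first 8 h the late hours stood above the early ones in thymus and spleen. In thymus Ccl2 was 288 ± 93.5 FPKM at 6 to 8 h (SD, n = 3) against 96.7 ± 69.2 FPKM at 1 to 5 h (n = 5), and Ccl7 was 264 ± 78.9 against 100.1 ± 70.3 FPKM, both with no overlap. Ccl3 (122 ± 56.1 against 65.4 ± 46.3 FPKM) and Ccl4 (116 ± 68.8 against 55.02 ± 43.8 FPKM) overlapped. These 4 passed the limma test, with changes of 2.25 ± 0.55, 1.97 ± 0.56, 1.36 ± 0.43 and 1.53 ± 0.50 (adjusted p = 0.00290, 0.00883, 0.0183 and 0.0209), in a comparison where 18.7% of genes tested were called higher and 32.1% in either direction. Without the 1 h or the 8 h library, or with a pseudocount of 0.1, only the call of Ccl2 was left. The exact two-sided permutation p, which cannot go below 0.0179 here, was 0.0893 for Ccl2, 0.107 for Ccl7 and 0.232 for Ccl3 and Ccl4. Ccl5 was 282 ± 88.0 against 137 ± 36.9 FPKM with no overlap and an exact permutation p of 0.0179, while its limma change of 1.04 ± 0.46 had an adjusted p of 0.0894 (0.0155 without the 4 libraries that stood apart). Over the 30 exact tests the smallest adjusted p was 0.268.

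In spleen the later hours were higher for Ccl7, Ccl3 and Ccl4, by 2.09 ± 0.55, 1.99 ± 0.43 and 1.60 ± 0.50 (limma adjusted p = 0.00741, 0.00172 and 0.0194), where 15.6% of genes tested were called higher and 27.8% in either direction. The groups overlapped for all 3, since the 5 h library was close to the 6 h one, and the exact permutation p was 0.143, 0.0714 and 0.107. Ccl3 at 6 to 8 h was the tightest of these at 45.1 ± 3.46 FPKM (n = 3), against 17.4 ± 17.9 FPKM at 1 to 5 h (n = 5). Without the 6 h library, or without the 2 h library, only the call of Ccl3 was left. Ccl2 (0.98 ± 0.55, adjusted p = 0.187) and Ccl5 (-0.08 ± 0.46, adjusted p = 0.915) did not pass.

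The change of Ccl2 at 1 to 8 h was larger in the lymphoid organs than in the intestines. The mean of spleen and thymus was 4.48 and that of both intestines 1.30, a difference of 3.18 ± 0.79 (limma adjusted p = 0.0276), in a comparison where 2.09% of genes tested were called higher and 3.02% in either direction. It lost the threshold with a pseudocount of 0.1 (adjusted p = 0.0596) and with other time windows (adjusted p = 0.147), and without the 4 libraries that stood apart Ccl2 fell under the filter in large intestine. Ccl7, Ccl3 and Ccl4 were under that filter (a mean of 1 FPKM in all 4 tissues) and were not tested; with no filter their differences were 3.64 ± 0.81, 3.30 ± 0.63 and 3.41 ± 0.73 (adjusted p = 0.0139, 0.00489 and 0.0106). For Ccl5 the difference was 0.48 ± 0.67 (adjusted p = 0.769).

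Spleen and thymus were not shown to differ from each other. The change in spleen minus that in thymus was -1.0 ± 1.12 for Ccl2, -2.32 ± 1.14 for Ccl7, -2.35 ± 0.89 for Ccl3, -3.24 ± 1.02 for Ccl4 and -0.73 ± 0.94 for Ccl5 (limma adjusted p = 0.832, 0.47, 0.310, 0.207 and 0.868). None of the 5 passed, in a comparison where 0.385% of genes tested did. Small minus large intestine did not pass for Ccl2 or Ccl5 either (0.87 ± 1.13 and 0.39 ± 0.95, adjusted p = 0.886 and 0.950), where 0.137% were called.

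Ordered by the median over 1 to 8 h, Ccl2 was highest in NIH3T3 (472 FPKM), then thymus (151), spleen (31.3), small intestine (2.67) and large intestine (1.03). Ccl7 followed as 217 in NIH3T3, 156 in thymus, 13.7 in spleen, 2.23 in large and 0.609 FPKM in small intestine. Both orders put the fibroblast line above thymus, but the ranges of all neighbours in them overlapped. Ccl3 and Ccl4 had the order thymus (89.9 and 73.4 FPKM), spleen (33.5 and 23.1), small intestine (1.81 and 1.36), large intestine (0.308 and 0.178) and NIH3T3 (0 for both), again with overlapping neighbours. Ccl5 had overlapping ranges in spleen (median 203), small intestine (196) and thymus (174 FPKM), and these ranges did not overlap that of large intestine (median 5.32 FPKM), which lay above NIH3T3 (median 0).

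Within thymus, log2(FPKM + 1) of Ccl2 and Ccl7 correlated at r = 0.990 and that of Ccl3 and Ccl4 at r = 0.991 over 10 libraries, and within spleen at 0.911 and 0.926. The pairs across clusters lay at 0.965 to 0.979 in thymus and 0.810 to 0.963 in spleen, where Ccl7 and Ccl3 were the closest pair. Ccl5 was apart from the other 4 in thymus (0.320 to 0.501) and in spleen (-0.354 to -0.0721). These are descriptions of libraries that share 1 time course. The ratio of Ccl3 to Ccl4 had a median of 1.08 in thymus and 1.05 in spleen. The ratio of Ccl2 to Ccl7 differed more, with medians of 1.03 in thymus, 1.92 in NIH3T3 and 2.58 in spleen.

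Ccl12 was the only other CC ligand found that was called higher at 1 to 8 h in both lymphoid organs. Of 18 listed, 12 were in the matrix. In thymus 3 of 11 tested rose at 1 to 8 h and none fell: Ccl12, a Ccr2 ligand of mice, by 3.50 ± 0.55 (limma adjusted p = 0.000234), and the myeloid chemokines Ccl9 by 2.34 ± 0.46 and Ccl6 by 1.59 ± 0.32. In spleen 2 of 9 rose, the eosinophil attractant Ccl11 by 2.95 ± 0.56 and Ccl12 by 2.43 ± 0.55. The list median was 1.42 in thymus and 0.44 in spleen, beside 0.02 over all genes tested in each. Of all genes tested, 8.29% were called higher in thymus and 5.03% in spleen. Ccl11 in thymus changed by 1.58 ± 0.56 and did not pass (limma adjusted p = 0.0687). Ccl6 and Ccl9 in spleen were higher at 6 to 8 h than at 1 to 5 h (1.95 ± 0.22 and 1.57 ± 0.32). In that comparison 15.6% of all genes tested were called higher. Spleen minus thymus at 1 to 8 h did not pass for Ccl11, Ccl6 or Ccl9 (limma adjusted p = 0.573, 0.521 and 0.446). Ccl12 in thymus ran from 8.70 FPKM at 0 h through 28.0 FPKM at 1 h to 239 FPKM at 8 h and 175 FPKM at 24 h. At 24 h, 8 of 11 were higher in thymus, led by Ccl12 (4.18 ± 0.74), Ccl8 (4.0 ± 0.75) and Ccl6 (3.55 ± 0.43). Of all genes tested there, 26.4% were called higher and 45% in either direction. This rests on the thymus library that held small intestine transcripts. In spleen 5 of 9 were higher at 24 h, led by Ccl12 (3.33 ± 0.74) and Ccl8 (2.50 ± 0.74), where 20.8% of all genes were called in either direction. Ccl8, another ligand that acts on monocytes, was between 28.7 and 87.3 FPKM in thymus up to 8 h and 630.1 FPKM at 24 h. In the intestines none of 11 and none of 10 passed at 1 to 8 h, with list medians of -0.05 and 0.27.

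Receptor transcripts moved in both directions. Ccr1, the receptor of Ccl3 and Ccl5 on neutrophils and monocytes, rose by 1.40 ± 0.35 in spleen and 2.02 ± 0.35 in thymus at 1 to 8 h (limma adjusted p = 0.0124 and 0.000488). In spleen Ccr1 was between 3.03 and 5.05 FPKM from 0 to 5 h, then 50.8, 57.1 and 47.9 FPKM from 6 to 8 h and 12.4 FPKM at 24 h. In thymus it went from 1.08 FPKM at 0 h to 34.8 FPKM at 8 h. At 6 to 8 h against 1 to 5 h, Ccr1 and the monocyte receptor Ccr2 were higher in spleen (3.49 ± 0.24 and 1.26 ± 0.17) and in thymus (2.35 ± 0.24 and 1.08 ± 0.17). Ccr9, a homing receptor of thymocytes, was lower in both (-1.05 ± 0.15 and -1.02 ± 0.15), as was Ccr4 in thymus (-0.73 ± 0.19). Of all genes tested in that comparison, 27.8% were called in spleen and 32.1% in thymus. At 1 to 8 h, 5.03% of all genes tested were called higher in spleen and 8.29% in thymus. By 24 h in thymus, Ccr2 had gone from 5.21 to 46.6 FPKM (2.94 ± 0.33), while Ccr9 had gone from 122 to 4.65 FPKM (-4.44 ± 0.30). These 24 h values rest on the library that held small intestine transcripts, where 45% of all genes tested were called in either direction.

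**Figure D3:**
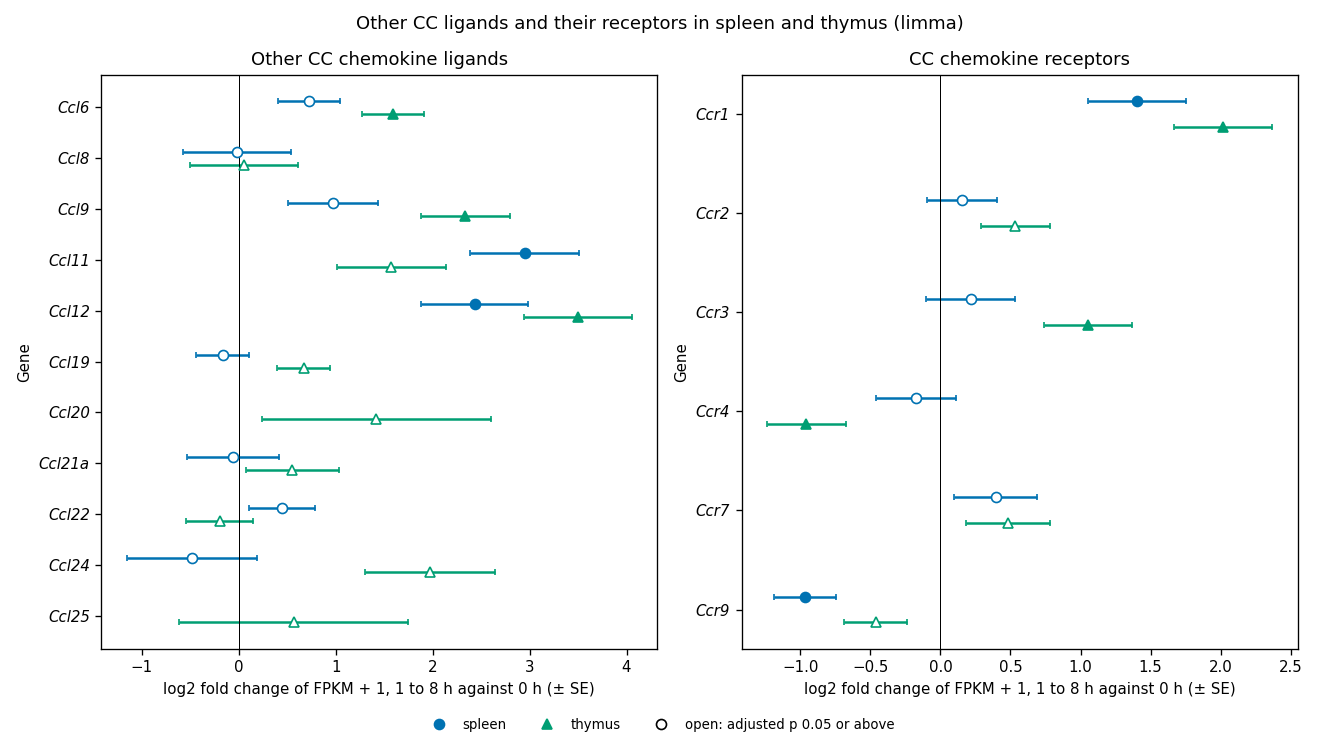
Log2 fold change of FPKM + 1 at 1 to 8 h against 0 h with its standard error from limma (x axis) for the other CC ligands (left) and CC receptors (right) tested in spleen (blue) and thymus (green); filled symbols have an adjusted p below 0.05. Ccl12 and Ccr1 are filled in both organs, at 2.43 and 1.40 in spleen and 3.50 and 2.02 in thymus.

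Genes of the NF-kB pathway and early inflammation, which include inducers and co-induced targets of these chemokines, were listed as 16 genes and all were tested in the lymphoid organs. At 1 to 8 h, 9 of 16 rose in spleen and 9 in thymus and none fell, with list medians of 0.89 and 0.94. Il1b, a cytokine of activated myeloid cells, rose by 2.82 ± 0.57 in spleen and 4.13 ± 0.57 in thymus (limma adjusted p = 0.00277 and 6.04e-05), and Il1a by 1.85 ± 0.33 and 3.04 ± 0.33. Tnf, a cytokine of macrophages, had the largest rise of the list in thymus (4.99 ± 0.85, adjusted p = 0.000411), from a listed 0.00110 FPKM at 0 h to 105 FPKM at 8 h, and in spleen changed by 0.05 ± 0.84 (adjusted p = 0.981). The change of Tnf in spleen minus that in thymus was -4.94 ± 1.19 and did not pass (limma adjusted p = 0.0683). At 6 to 8 h against 1 to 5 h all 16 were higher in thymus, where 18.7% of all genes tested were called higher and 32.1% in either direction. In spleen 11 were lower, Tnf among them (-1.81 ± 0.58), and Il1b alone was higher (1.61 ± 0.39). Of all genes tested in spleen, 27.8% were called in either direction. The difference between the organs at 6 to 8 h against 1 to 5 h was not tested. The summed level peaked at 1 h in spleen (1714 FPKM, from 493 at 0 h) and at 8 h in thymus (1356 FPKM, from 320.4 at 0 h). Of 12 interferon-stimulated genes, 10 were higher in spleen and 11 in thymus at 24 h, with list medians of 2.52 and 3.14. Over all genes tested at 24 h, 26.4% were called higher in thymus, and 20.8% were called in either direction in spleen. At 1 to 8 h, 1 and 0 of the 12 were higher, where 5.03% and 8.29% of all genes were.

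Markers of the cells that make or follow these chemokines shifted over the same hours. In whole organs a change in the number of cells of a type and a change in RNA per cell cannot be told apart, and the part of either in the chemokine values was not tested. The 10 monocyte and macrophage markers summed to 715 FPKM in thymus at 0 h, 799 to 1382 at 1 to 5 h, 1595 to 2115 at 6 to 8 h and 2563 at 24 h, with 5 of 10 higher at 1 to 8 h and 9 of 10 at 24 h. In spleen those sums were 3352, 3484 to 5385, 6145 to 6585 and 11454 FPKM, with 2 and 6 of 10 higher. Of all genes tested in thymus, 8.29% were called higher at 1 to 8 h and 26.4% at 24 h. In spleen 5.03% were called higher at 1 to 8 h, and 20.8% were called in either direction at 24 h. The 7 neutrophil markers found summed to 857 FPKM in spleen at 0 h, 596 to 1413 at 1 to 5 h, 8813 to 13094 at 6 to 8 h and 1717 at 24 h, and in thymus to 116, 149 to 338, 576 to 1832 and 265 FPKM. S100a8 and S100a9, at 5575 and 4443 FPKM, made up most of the 6 h spleen sum. At 6 to 8 h against 1 to 5 h in spleen, Mmp8, S100a8, S100a9 and Retnlg were higher. Ngp, Camp and Ly6g did not pass there (0.46 ± 0.30, 0.17 ± 0.34 and 2.41 ± 1.01). Camp and Ly6g did not pass in thymus. Of all genes tested in that comparison, 15.6% were called higher in spleen and 18.7% in thymus. The neutrophil sum and Ccr1 stood highest among the spleen libraries at 6 to 8 h. At 5 h Ccl2 was 79.0, Ccl7 44.9, Ccl3 44.5 and Ccl4 43.4 FPKM in spleen. In that single library the neutrophil sum (596 FPKM) and Ccr1 (3.03 FPKM) were at their lowest. Its monocyte and macrophage sum was 5385 FPKM, the highest of 1 to 5 h. How these levels relate was not tested. None of the neutrophil markers found was at 0 throughout either organ.

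Lymphocyte marker sums were lower than at 0 h, while single genes of the cytotoxic list moved in both directions. The 5 T cell markers found in thymus summed to 1447 FPKM at 0 h, 1079 to 1331 at 1 to 5 h, 687 to 770.2 at 6 to 8 h and 279 at 24 h. The 9 cytotoxic and natural killer markers found summed to 1057, 743 to 1037, 443 to 589 and 258 FPKM there, and Cd8a and Cd8b1, which thymocytes also express, made up most of the 0 h sum (365 and 547 FPKM). Within that list at 24 h, when Ccl5 was highest, Cd8b1 and Cd8a, the chains of the cytotoxic T cell coreceptor, were lower (-4.86 ± 0.43 and -4.45 ± 0.60) and Gzmb, a killing enzyme of cytotoxic cells, was higher (3.87 ± 0.99, limma adjusted p = 0.00279). Nkg7, Klrd1 and Prf1, other genes of cytotoxic cells, did not pass (1.01 ± 0.58, 0.60 ± 0.59 and 0.16 ± 0.36, adjusted p = 0.162, 0.430 and 0.740). Neither did Klrb1c (0.55 ± 0.65, adjusted p = 0.521) or Gzma, which went the other way (-0.99 ± 1.57, adjusted p = 0.634). The 24 h thymus library held small intestine transcripts, at a marker median of 10.9% of the small intestine level. Gzma was 330 FPKM in small intestine at 24 h and 47.3 FPKM in that thymus library, and Gzmb was 78.4 and 89.6 FPKM. The part carried over was not worked out for these genes. In spleen the cytotoxic sum was 342 FPKM at 0 h, 237 to 299 at 1 to 5 h, 193 to 216 at 6 to 8 h and 293 at 24 h. Of its 9 genes, Cd8b1 and Ncr1 were lower at 1 to 8 h, where 8.68% of all genes tested were called in either direction. At 24 h in spleen, Cd8b1 went from 61.3 to 1.31 FPKM (-4.75 ± 0.42) and Cd8a from 35.1 to 9.24 FPKM (-1.82 ± 0.60). No other gene of that list passed there. Epithelial markers, which the thymic stroma also expresses, summed to 324 FPKM at 0 h and 1545 to 2758 at 6 to 8 h in thymus. At 1 to 8 h 5 of 6 were higher, where 8.29% of all genes tested were called higher. Of 8 fibroblast markers there, Thy1, which thymocytes also express, was lower at 1 to 8 h (-1.34 ± 0.37, limma adjusted p = 0.0178) and the other 7 did not pass. Dcn changed by 1.03 ± 0.38 (adjusted p = 0.0805), and at 24 h Col3a1, Lum and Dcn were higher and Thy1 lower. Thy1 made up 655 of the 781 FPKM of the summed list at 0 h.

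**Figure D4:**
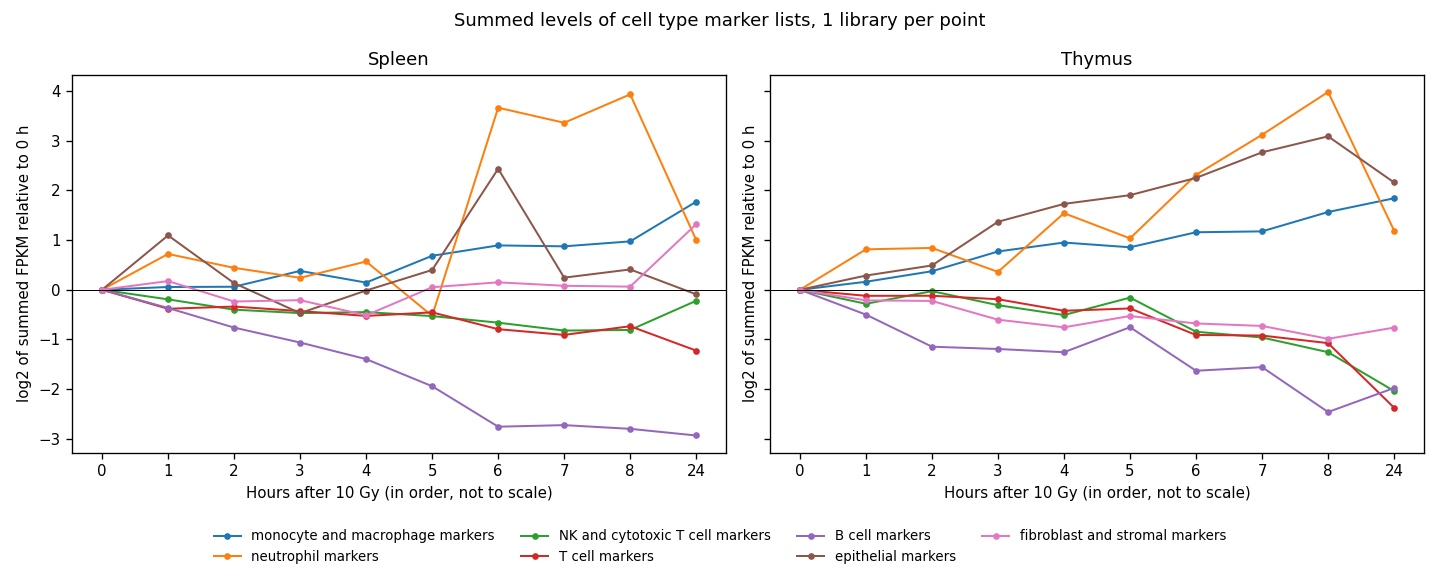
Log2 of the summed FPKM of each marker list relative to 0 h (y axis) against hours after 10 Gy (x axis, in order, not to scale) in spleen (left) and thymus (right), 1 point per library. Neutrophil sums stand highest at 6 to 8 h in both organs, at 8813 to 13094 FPKM in spleen and 576 to 1832 FPKM in thymus, and the B cell and T cell sums lie below their 0 h level in every irradiated library.

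The genes whose pattern was most like each member were found by Pearson correlation of log2(FPKM + 1), centred within each tissue, over the 40 tissue libraries and 13328 genes, leaving out the members themselves, which were as close or closer to each other in places (Ccl3 and Ccl4 0.934, Ccl7 and Ccl3 0.897). Ccl2 was closest to Plau (r = 0.894), the urokinase protease, then Maff and Plk3 (0.850 each). Ccl7 was closest to the AP-1 subunit Fosl2 (0.915) and also close to Il1b (0.880), and Ccl3 was closest, outside the members, to Fosl2 (0.889), the immediate early gene Ier3 (0.878) and Ramp3 (0.873). Outside the members, Ccl4 was closest to Ier3 (0.896), Il1a (0.857) and Gm6377 (0.854). Ccl5 was closest to Gzmb (0.870), Anpep (0.827) and Hsd17b6 (0.818), and these values dropped to 0.739, 0.633 and 0.551 over the 36 libraries left without the 4 that stood apart. For the other 4 members the values without those libraries lay between 0.869 and 0.930.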

How the data were processed

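Polyadenylated RNA was sequenced from unstranded TruSeq libraries, per the labels' protocols. Reads were aligned to mm10 with TopHat2 2.1.0 and quantified with Cufflinks 2.1.1, per the submitters' processing notes. The deposited values are FPKM as the authors made them; no source used here describes gene filters or scaling between libraries.

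Tests were run in R 4.3.3 by limma 3.58.1 with log2(FPKM + 1) as input and a mean for each tissue and time window (0 h, 1 to 2, 3 to 5, 6 to 8, 24 h, and 9 to 12 h in NIH3T3), so that neighbouring hours served as replicates. Tissues (40 libraries) were fitted jointly, leaving 20 residual degrees of freedom, and NIH3T3 separately, leaving 8. A gene entered a comparison if its FPKM averaged 1 or more in each system compared. The 19 comparisons were two-sided, and genes were called at a Benjamini-Hochberg adjusted p below 0.05. The single 0 h and 24 h libraries are assumed to vary like the others. Single values were also tested by exact permutation. The fits were checked on simulated data. All 5 members are named; of other lists, up to the 3 highest and 3 lowest called genes; and for each member up to 3 genes most like it, and some results under these rules are not reported here. Members and lists were chosen with earlier results of these data known. Alternatives were another pseudocount (0.1), no filter or a mean of at least 0.1, quantile normalization, separate fits, other windows, the hour as a block, and leaving out 1 library or the 4 that stood apart. Sequences and positions came from GENCODE M21 (GRCm38).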

Additional observations from a re-analysis of the deposited data

Results flagged for a closer look

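In NIH3T3 from 9 to 12 h, the 11 h library held 347.8 FPKM of Ccl2, far from the other 3 libraries, which lay between 313 and 317 FPKM. The 10 h library was the only 1 of those 4 with Ccl5 above 0, at 0.533 FPKM. Only groups of 4 or more libraries were examined, and this time window was the only such group, so both values had to come from it. With Ccl5 at 0 in the other 3 libraries, its value above 0 was bound to be flagged. These 2 values came from 4 examinations, each of 1 gene in this group, for a library far from the others.

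The change of Ccl2 at 1 to 8 h differed between the lymphoid organs and the intestines by 3.18 on the log2 scale, as a test of the difference itself found (limma adjusted p = 0.0276).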

How the results depend on the processing

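Over the alternatives run, 976 member results kept their side of the threshold, 41 lost the threshold and 10 passed it anew. None that passed in the main or the alternative run reversed its direction. For results that passed in neither run, a change of direction was not counted. The number of members called moved by more than 1.5 times as follows. With spleen fitted alone it went from 3 to 1 at 1 to 8 h and from 3 to 1 at 6 to 8 h against 1 to 5 h, where it was also 1 without the 4 libraries that stood apart and 1 to 4 with 1 library left out. In thymus at 6 to 8 h against 1 to 5 h it was 4, but 1 with a pseudocount of 0.1 and 1 to 4 with 1 library left out. In NIH3T3 it went from 0 to 2 at 24 h and from 1 to 2 at 9 to 12 h against 1 to 5 h with other time windows, and with 1 library left out it was 1 to 2 at 9 to 12 h and 0 to 1 at 6 to 8 h. For spleen and thymus minus the intestines it went from 1 to 0 with a pseudocount of 0.1, other time windows or without the 4 libraries, and to 4 with no filter or a mean FPKM of at least 0.1, where more members were tested. Apart from this filter, the cause was not tested.

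Between same-hour libraries of different tissues, deviations from window means correlated at -0.127 to 0.324 over 48 pairs (median 0.0408, 5 over 0.1). These values cannot decide whether the tissues of an hour came from 1 animal, because tissues of 1 animal need not deviate alike. With the hour as a block, the members called stayed at 3 in spleen and 4 in thymus at 1 to 8 h, and at 5 in thymus at 24 h. Without fragment counts, no counting error could be set beside values under 1 FPKM.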
